A study of Mus musculus with 4 samples.

Results

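A pair of libraries in the series carries the label Gfi1b knockout, 1 from a PF4-Cre model and 1 from a ROSA-Cre model, and the transcriptome of these 2 of the 4 libraries is described here. They were chosen by their labels, and 37283 of the 41214 gene identifiers counted, those not on the X or Y chromosome, were used. All 4 libraries hold RNA of megakaryocytes that were sorted from leg and arm bones of C57Bl/6 mice aged 8 weeks by a gate for cells that lacked lineage markers and carried cKit, CD41 and CD61. Each Cre model, PF4-Cre and ROSA-Cre, gave 1 library labelled Gfi1b wild-type and 1 labelled Gfi1b knockout. The labels name the Cre for the wild-type libraries too. They do not give the deleted exons, the ROSA-Cre allele, the sex of the mice or whether mice were pooled. Below, "the knockout pair" stands for the comparison of the ROSA-Cre library labelled knockout with the PF4-Cre library labelled knockout, and "the wild-type pair" for the same ratio of the libraries labelled wild-type.

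Megakaryocytes are the large polyploid bone marrow cells that shed platelets into the blood. GFI1B is a zinc finger repressor of the megakaryocyte and red cell lineages that binds DNA and recruits the histone demethylase LSD1 with CoREST proteins, and its paralogue GFI1 does the same in stem cells and granulocyte precursors. GFI1B represses its own gene and that of GFI1. Pf4 encodes platelet factor 4, a chemokine stored in platelet alpha granules, and its promoter drives Cre in megakaryocytes and some other blood cells, whereas the ROSA26 locus is active in most cell types.

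Gene counts per library ran from 21835165 in the ROSA-Cre library labelled knockout to 61652843 in the PF4-Cre library labelled wild-type, and the PF4-Cre library labelled knockout held 59595680. Levels are given as CPM, the usual counts scaled to library size, with TMM factors. A count of 0 allowed a level of up to 0.0496 CPM in the PF4-Cre library labelled knockout and 0.134 CPM in the ROSA-Cre library labelled knockout. The nuclear repeat-like genes Gm26917 and Gm42418 took 0.223% of gene counts in the former and 0.932% in the latter, mitochondrial genes 0.476% and 0.32%, and the small RNA genes Rmrp, Rn7sk and Rpph1 together 1.94% and 3.33%. With 1 library a side the knockout pair allows no test. Its ratios are given with 95% Clopper-Pearson intervals, which cover counting error only.

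The targeted gene went against a simple reading of the labels. Gfi1b (GRCm38 chr2:28609450-28621982, minus strand) was counted 84744 times in the PF4-Cre and 55122 times in the ROSA-Cre library labelled knockout, against 10137 and 5864 times in the matching libraries labelled wild-type. In CPM these are 1401 and 2462 against 170 and 238. Both libraries labelled knockout stood above both labelled wild-type, and edgeR's quasi-likelihood test over the 4 libraries gave a log2 change of 3.21 ± 0.17 (SE) with an adjusted p of 0.000142. Counts per gene do not show which exons were read, so they cannot tell an intact from a deleted transcript. Every direction below that is taken from genotype rests on the labels.

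Tmem215, which encodes a transmembrane protein, and Plagl1, an imprinted zinc finger gene, were near silent in the libraries labelled wild-type. Tmem215 (chr4:40472180-40477168) stood at 0.619 and 0.569 CPM there, and at 457 CPM in the PF4-Cre and 320 CPM in the ROSA-Cre library labelled knockout. Plagl1 (chr10:13060504-13131694) stood at 0.92 and 1.63 CPM there, and at 184 and 263 CPM in the libraries labelled knockout. The log2 changes with genotype were 9.39 ± 0.20 (SE, edgeR adjusted p = 3.81e-06) for Tmem215 and 7.50 ± 0.18 (SE, adjusted p = 4.75e-06) for Plagl1. Within the knockout pair the order was not the same for the 3 genes: Tmem215 was 1.43-fold (1.39 to 1.46) lower in ROSA-Cre, while Plagl1 was 1.43-fold (1.38 to 1.47) and Gfi1b 1.76-fold (1.74 to 1.78) higher. Gfi1, the paralogue, was at 7.88 and 8.05 CPM in the libraries labelled wild-type and at 39.9 and 95.03 CPM in those labelled knockout, and it was 2.38-fold (2.24 to 2.52) higher in ROSA-Cre than in PF4-Cre in the knockout pair.

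The start regions of the 3 genes that set these libraries apart are shown because a repressor of the GFI1 family binds a site with the core AATC, and because all 3 were high in both. The sequences are RefSeq promoters of GRCm38.p6, 250 bases before to 50 after the start, given 5′ to 3′ on the gene's strand. Capitals mark AAATCA, a GFI1-type motif, and AGATAA or TGATAA, motifs of the GATA factors that share targets with GFI1B, each searched on both strands.
Gfi1b chr2:28621933-28622232, minus strand: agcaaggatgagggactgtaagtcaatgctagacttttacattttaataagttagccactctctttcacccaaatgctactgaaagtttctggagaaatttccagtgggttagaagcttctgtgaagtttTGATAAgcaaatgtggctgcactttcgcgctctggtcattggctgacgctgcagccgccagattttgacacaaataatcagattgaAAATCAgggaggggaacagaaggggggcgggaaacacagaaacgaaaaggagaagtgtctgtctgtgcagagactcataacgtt
Tmem215 chr4:40471930-40472229, plus strand: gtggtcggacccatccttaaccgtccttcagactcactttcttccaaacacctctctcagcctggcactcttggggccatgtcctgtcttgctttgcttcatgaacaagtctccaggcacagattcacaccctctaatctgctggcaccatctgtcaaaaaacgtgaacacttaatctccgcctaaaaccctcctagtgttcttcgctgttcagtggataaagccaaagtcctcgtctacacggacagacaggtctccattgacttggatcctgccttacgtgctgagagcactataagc
Plagl1 chr10:13090582-13090881, plus strand: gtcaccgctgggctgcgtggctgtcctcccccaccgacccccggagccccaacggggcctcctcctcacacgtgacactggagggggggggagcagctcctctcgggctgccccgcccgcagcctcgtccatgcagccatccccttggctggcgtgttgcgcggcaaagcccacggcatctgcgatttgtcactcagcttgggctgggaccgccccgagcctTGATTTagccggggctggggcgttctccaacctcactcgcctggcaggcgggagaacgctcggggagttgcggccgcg
Gfi1b held 1 AAATCA, 34 bases before the start, and 1 TGATAA, 120 bases before it. Plagl1 held 1 AAATCA, on the other strand and 28 bases before the start, and this RefSeq start lies 30328 bases inside the gene as GENCODE draws it. Neither the printed Tmem215 window nor that of its other RefSeq start held either motif. The shorter core AATC was not searched on its own, and it does stand in the printed Tmem215 window. AAATCA stood in the windows of 4063 (15.8%) of 25748 genes with a RefSeq promoter, of 1050 (10.2%) of the 10289 tested genes that could be matched, and of 62 (15.5%) of the 400 matched genes that rose 4-fold or more past the genotype test. The GATA motifs stood in 21.0%, 12.7% and 15.0% of the same sets. These shares are descriptions, and no binding was measured.

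The 2 libraries labelled knockout shared most of their abundant RNA. Of the 100 genes with the highest CPM in each, 70 were the same, and 54 of these were in the top 100 of all 4 libraries. The small RNA genes Rn7sk (11815 CPM in PF4-Cre, 15335 CPM in ROSA-Cre), which encodes a regulator of transcription elongation, and Rpph1 (5723 and 14495 CPM), the RNA of RNase P, were among the 4 highest in each library. With them stood the long noncoding RNA Malat1 (10773 and 10746 CPM), the translation factor genes Eef1a1 (7662 and 8597 CPM) and Eef2 (2796 and 4278 CPM), Actb (3612 and 3672 CPM), and Plek (4092 and 4128 CPM), which encodes pleckstrin, a platelet protein kinase C substrate. Itga2b, the CD41 gene of the sort gate, was at 2470 and 2155 CPM, Itgb3, the CD61 gene, at 1611 and 1414 CPM, and Kit at 202 and 331 CPM. The gate markers and Gp9, Gp1bb, Treml1 and Vwf were all well above the floor in both libraries (45.1 CPM or more). Per kilobase of exon Pf4 was among the 10 highest in PF4-Cre, at 1981 CPM per kilobase, and stood at 986 in ROSA-Cre. The 10 most abundant genes took 5.48% of gene counts in PF4-Cre and 7.48% in ROSA-Cre. At 1 CPM or more, 11924 genes were found in both, 377 in PF4-Cre alone and 409 in ROSA-Cre alone.

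There were 8 genes in the top 100 of both libraries labelled knockout and of neither labelled wild-type. Besides Gfi1b and Itgb3 they were Txnip, an inhibitor of thioredoxin, F2r, the thrombin receptor PAR1, Cavin2, a caveola protein, Sptbn1, a beta spectrin, Mrvi1, a partner of the calcium release receptor, and the mitochondrial ribosomal RNA gene mt-Rnr2. Txnip stood at 1212 CPM in PF4-Cre and 1552 CPM in ROSA-Cre, against 517 and 308 CPM in the libraries labelled wild-type. F2r stood at 1163 and 1290 CPM against 568 and 500 CPM, and Mrvi1 at 866 and 880 CPM against 207 and 282 CPM. The genes were chosen by these ranks, so the values are a description.

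In the test over the 4 libraries, 1824 genes (12.6%) of 14514 were higher and 1414 (9.74%) lower in the libraries labelled knockout. With the term for Cre model dropped 151 were higher and 4 lower, and with any 1 library left out as well 400 to 714 were higher and 52 to 140 lower. Of the former, 567 rose 4-fold or more, and their summed level went from 1842 to 12418 CPM in PF4-Cre and from 1918 to 15587 CPM in ROSA-Cre. Besides Gfi1b, Tmem215 and Plagl1 the most abundant were Glul, glutamine synthetase, Vim, the intermediate filament vimentin, Ncf1, a subunit of the phagocyte oxidase, Galnt6, a glycosyltransferase, Gda, guanine deaminase, Syne2, a nesprin of the nuclear envelope, Itsn1, an endocytic scaffold, Anxa6, an annexin, and Clec1b, the platelet receptor CLEC-2. Glul was at 156 and 98.7 CPM in the libraries labelled wild-type and at 699 CPM in PF4-Cre and 902 CPM in ROSA-Cre labelled knockout. Clec1b was at 45.4 and 41.1 CPM, and at 273 and 271 CPM. Syne2 was at 20.1 and 27.5 CPM, and at 220 and 454 CPM. The plot of these genes by library describes genes that were chosen for this rise. In it the libraries labelled knockout were at most 2.75-fold apart (Galnt6, 190.1 and 524 CPM). A fall of 2-fold or more past the test was found in 287 genes. Among the most abundant of these were Tuba8, an alpha tubulin, at 262 and 292 CPM in the libraries labelled wild-type and 120.2 and 47.2 CPM in those labelled knockout, and Coro1a, an actin regulator, at 297 and 413 CPM and at 175 and 153 CPM. Cad, the enzyme that starts pyrimidine synthesis, was at 268 and 362 CPM, and at 159.8 and 138 CPM.

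**Figure D1:**
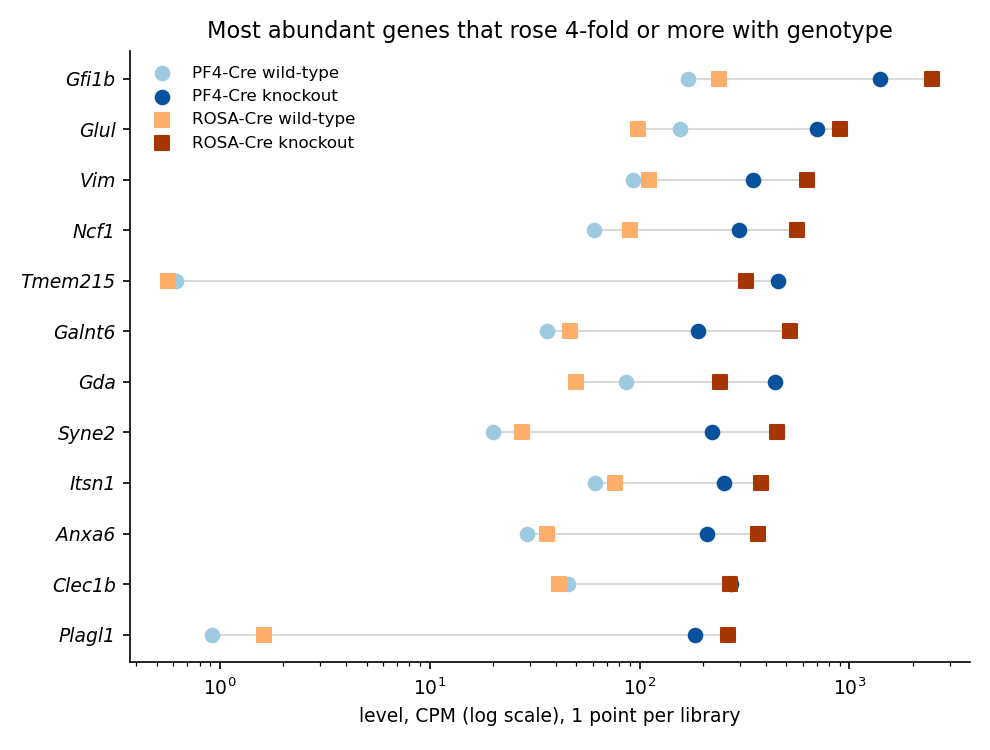
Level in CPM (log scale) of the 12 most abundant genes that rose 4-fold or more past the genotype test, 1 point per library, with no error since each group is 1 library. Dark points are libraries labelled knockout and light points those labelled wild-type, the genes were chosen for this rise, and Tmem215 and Plagl1 start near 1 CPM.

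In the genotype test, lists of genes with a common role moved as follows, beside the shares of 12.6% higher and 9.74% lower over all genes tested. The test averages the Cre models, so a gene that passed it need not have moved in each of them. Of 30 interferon response genes 19 rose, among them Ifi44 (4.94 and 1.38 CPM to 39.5 and 15.1 CPM) and Ifit1 (3.48 and 1.54 CPM to 12.04 and 6.03 CPM). Of 19 Hox genes and partners tested 11 rose, with Hoxa7, a homeobox factor of early progenitors, at 9.70 and 9.63 CPM in the libraries labelled wild-type and 24.4 and 45.2 CPM in those labelled knockout. Of 22 Wnt pathway genes tested 7 rose and 1 fell, and Wnt10b, a secreted Wnt ligand among the former, was at 0.268 and 0.569 CPM, and at 15.0 and 29.3 CPM. Of 17 endothelial genes tested 7 rose, and none fell in edgeR or DESeq2 or at an unadjusted p under 0.05. Among them Plvap, a diaphragm protein of endothelium, was at 0.686 and 0.65 CPM, and at 21.9 and 12.1 CPM. Of 39 S phase genes tested 34 fell, and 24 of 39 mitosis and G2/M genes fell while 1 rose. Of 26 genes of the unfolded protein response and ER chaperones 15 fell and 1 rose.

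Markers of other cells also moved with genotype. Of 15 genes on the early neutrophil granule list 11 fell and 1 rose. The most abundant member, Calr, which encodes an ER chaperone, was among those that fell. The member that rose was Gstm1, a glutathione transferase, and neither of these 2 is a granule gene. Mpo, myeloperoxidase, was at 696 and 711 CPM in the libraries labelled wild-type and at 195 and 179 CPM in those labelled knockout, and Elane, neutrophil elastase, at 108 and 174 CPM and at 32.9 and 46.1 CPM. The summed level of the 13 genes of that list that stand in no other list was 1334 and 1510 CPM in the libraries labelled wild-type and 440 and 441 CPM in those labelled knockout. Of 25 red cell genes 11 fell and 2 rose, and of 16 globin and heme genes tested 5 rose and 4 fell. Among the latter Hbb-bs, an adult beta globin, was at 7.30 and 37.7 CPM, and at 135 and 221 CPM, with reads that near-identical globin copies may share. Fewer cells of a type and less RNA per cell cannot be told apart in bulk samples, and the part of such cells in the other genotype differences was not tested.

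The 2 libraries labelled knockout differed from each other in fewer genes than they shared. Of 10571 genes with 5 CPM or more in at least 1 of them, 7777 (73.6%) were within 1.5-fold. In ROSA-Cre 468 genes (4.43%) were 2-fold or more higher and 378 (3.58%) 2-fold or more lower. The interquartile range of the log2 ratio was -0.34 to 0.35, and across these genes Pearson's r of the log2 levels was 0.938 and Spearman's rho 0.944, where genes are not independent replicates. Eosinophil granule genes, Gata2 and the histone entries Hist1h4m and Hist1h2al stood among the higher. Immediate early genes, late neutrophil genes and the ER chaperone gene Hspa5 stood among the lower, as the scatter of the libraries shows. In the wild-type pair, which shares no library with the knockout pair, 155 (33.1%) of the genes higher and 157 (41.5%) of those lower were also 2-fold or more apart in the same direction, where 2.59% and 3.89% of all genes compared were. Within 1.5-fold in the wild-type pair were 168 and 122.

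**Figure D2:**
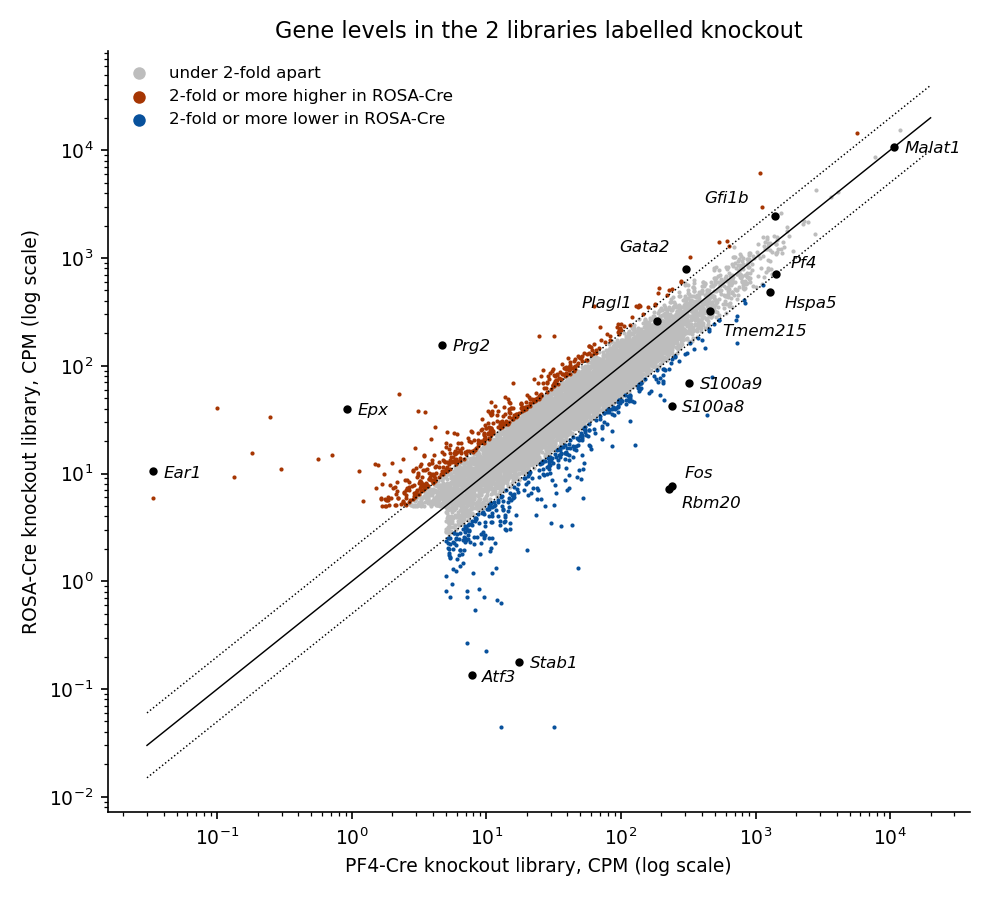
Level of each of 10569 genes in the PF4-Cre (horizontal) and the ROSA-Cre (vertical) library labelled knockout, in CPM on log scales, with the line of equal levels and dotted lines at 2-fold. Genes at 5 CPM or more in at least 1 library are drawn, 2 genes with 0 counts in a library are left out, and Prg2, Epx and Ear1 lie far above the lines while Fos, Atf3, Rbm20 and Stab1 lie far below.

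The ratio moved with base composition. Genes were split into 5 equal bins by the GC content of their longest transcript, and the median log2 ratio of the knockout pair went from -0.45 in the lowest bin to 0.37 in the highest. In the lowest bin 0.713% of genes were 2-fold or more higher and 8.88% lower in ROSA-Cre, and in the highest 11.4% and 1.76%. The wild-type pair gave medians of -0.57 and 0.41 in the same bins. Pearson's r of ratio and GC across genes was 0.458 in the knockout pair and 0.634 in the wild-type pair, but -0.069 for knockout over wild-type in PF4-Cre and -0.138 in ROSA-Cre. A smooth trend on GC and length held 24.2% of the variance of the ratio in the knockout pair. With this trend subtracted 260 genes (2.47%) were higher and 257 (2.44%) lower, 207 and 202 of them among the genes counted before. Cre model, depth and any difference in library making cannot be told apart, and the cause of the trend was not tested.

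**Figure D3:**
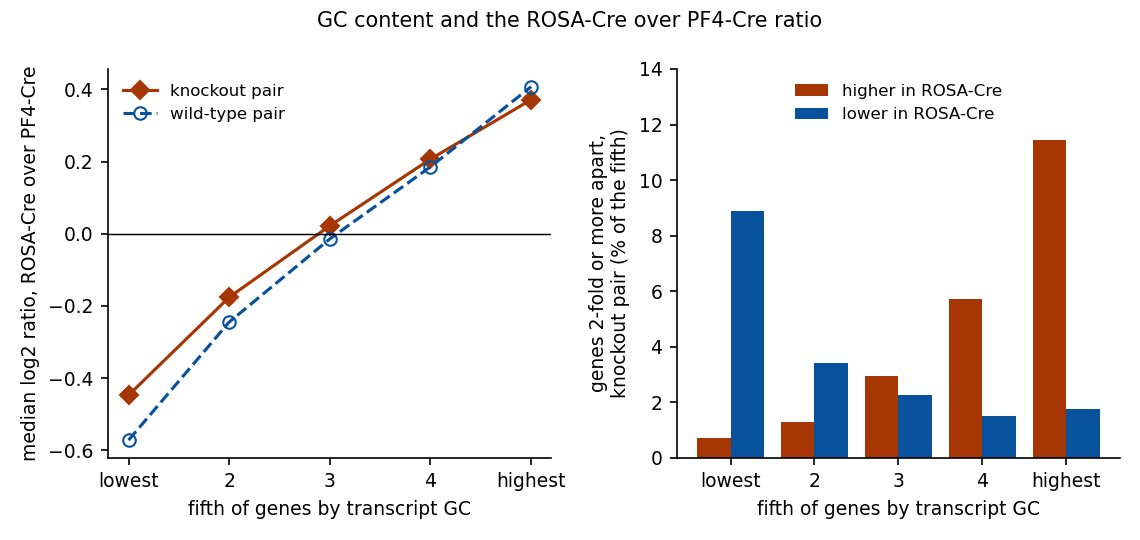
Left, median log2 ratio of ROSA-Cre over PF4-Cre in 5 equal bins of genes by transcript GC, for the knockout pair (diamonds) and the wild-type pair (circles). Right, share of genes in each bin that were 2-fold or more apart in the knockout pair, where higher genes go from 0.713% to 11.4% and lower genes from 8.88% to 1.76%.

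A test that bears on ROSA-Cre against PF4-Cre can be had only over all 4 libraries, as the effect of Cre model averaged over both genotypes. In edgeR's quasi-likelihood test 1229 genes (8.47%) were higher and 1467 (10.1%) lower in ROSA-Cre at an adjusted p under 0.05. Of the genes 2-fold or more higher in the knockout pair 309 (66.0%) passed this test in that direction, and of those lower 258 (68.3%), against 9.64% and 12.9% of all genes compared, but the test uses the same libraries. With a GC and length offset in the model 306 genes (2.12%) were higher and 172 (1.19%) lower. Without the genotype term no gene was higher and 1 lower in edgeR, with 951 and 1054 at an unadjusted p under 0.05, and with any 1 library left out as well 0 to 2 genes passed.

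Immediate early genes encode transcription factors and feedback regulators that cells switch on within minutes of a stimulus. Of 22 members compared in the knockout pair 16 were 2-fold or more lower in ROSA-Cre and none higher. Over all genes compared 3.58% were lower and 4.43% higher. The median log2 ratio of the members was -1.63, against 0.00093 over all genes compared. Fos was at 241 CPM in the PF4-Cre and at 7.64 CPM in the ROSA-Cre library labelled knockout, 31.6-fold (27.2 to 37.0) lower, and at 154 and 7.27 CPM in the libraries labelled wild-type. Jun, its partner in AP-1, was at 473 and 79.0 CPM, and at 362 and 68.2 CPM in the wild-type pair. Atf3, a stress-induced factor of the same family, was at 7.77 CPM in PF4-Cre and had 3 counts in ROSA-Cre, a ratio of 58.0 (19.7 to 282). Fosb was at 127 and 18.2 CPM, and Egr1 at 13.8 and 3.97 CPM. The PF4-Cre library was above the ROSA-Cre library of the same genotype for each of these 5 genes, and the wild-type pair gave a list median of -1.48. In the Cre model test 20 of 25 members tested were lower and none higher, also none at an unadjusted p under 0.05 or in DESeq2. With the GC and length offset 19 were lower. Of all genes tested 10.1% were lower, and 1.19% with the offset. Fos had a log2 difference of -4.69 (adjusted p = 7.33e-05), and -4.76 (adjusted p = 7.92e-06) with the offset. After the GC and length trend 18 members were lower in the knockout pair, beside 2.44% over all genes compared. Dusp2 (44.1 and 46.3 CPM), a nuclear phosphatase, and Fosl2 (17.6 and 25.4 CPM), a Fos relative, did not show the difference.

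The start region of Fos is shown as that of the most abundant gene among the largest differences, with capitals at TGACG, the shared part of sites for the CREB and ATF factors that act on immediate early genes.
Fos chr12:85473640-85473939, plus strand: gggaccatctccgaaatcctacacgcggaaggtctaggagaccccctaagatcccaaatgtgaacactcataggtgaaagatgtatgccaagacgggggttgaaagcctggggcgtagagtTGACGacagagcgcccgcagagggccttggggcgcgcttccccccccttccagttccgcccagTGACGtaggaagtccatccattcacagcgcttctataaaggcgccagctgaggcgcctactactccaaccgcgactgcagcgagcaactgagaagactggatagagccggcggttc
It held TGACG at 129 and 66 bases before the start. TGACG, on either strand, stood in the windows of 11 (73.3%) of the 15 matched immediate early genes that were lower, of 1 of the 5 matched that were not, and of 34.4% of tested genes. The CArG box, the site of serum response factor, stood in the window of Zfp36 alone among the 15, and in 1.46% of tested genes. Egr1 is not among the 15, so its window was not searched. For Fos and the others, sequence outside these short windows was not searched either. A window without a CArG box therefore does not show that the gene lacks one. The genes were chosen for their values, so the shares describe them and no more.

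Late neutrophil genes differed in the knockout pair but not in the wild-type pair. Of 13 compared 12 were 2-fold or more lower in ROSA-Cre, beside 3.58% over all genes compared. The median log2 ratio was -1.45, against a median of 0.33 in the wild-type pair, where none of the 13 was 2-fold apart. S100a8 was at 237 CPM in the PF4-Cre and 42.2 CPM in the ROSA-Cre library labelled knockout, 5.63-fold (5.27 to 6.02) lower, and at 193 and 122 CPM in the libraries labelled wild-type. S100a9, which pairs with it as calprotectin, was at 322 and 69.6 CPM, and at 263 and 242 CPM. Chil3, a chitinase-like protein, was at 50.7 and 8.84 CPM, and Mmp8, the neutrophil collagenase, at 23.4 and 4.11 CPM. The ROSA-Cre library labelled knockout was the lowest of the 4 for each of these genes, and the summed level of the 21 members was 917 CPM in PF4-Cre and 234 CPM in ROSA-Cre, against 782 and 785 CPM in the libraries labelled wild-type. Cxcr2, a chemokine receptor, was at 9.29 and 9.38 CPM. Stfa1, Stfa2 and Stfa3 had 0 counts in the ROSA-Cre library labelled knockout. In the ROSA-Cre library labelled wild-type 3 members had 0 counts too, and none had in the deeper PF4-Cre libraries. No member passed edgeR's genotype test among 18 tested, 3 were lower at an unadjusted p under 0.05 and 1 passed in DESeq2. In the Cre model test 2 of 18 were lower in edgeR, beside 10.1% of all genes tested, and 2 in DESeq2. With the GC and length offset in edgeR none passed and 2 were lower at an unadjusted p under 0.05. The difference of the pairs has no test of its own.

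Of 10 monocyte and macrophage genes compared 2 were lower and 1 higher in ROSA-Cre, beside 3.58% and 4.43% over all genes compared. Their median log2 ratio was -0.65. Ccr2, a monocyte chemokine receptor, was at 60.2 and 17.1 CPM, and Ctss, a lysosomal protease, at 21.6 and 6.61 CPM. Cd163, a macrophage scavenger receptor, was the higher member, at 3.39 and 6.97 CPM. None of 23 members passed the Cre model test in edgeR, where 5 were lower and none higher at an unadjusted p under 0.05, and 2 were lower in DESeq2. Early neutrophil genes did not differ by the size rule apart from Nkg7, which was at 32.4 and 80.4 CPM and also marks cytotoxic lymphocytes: Mpo was at 195 and 179 CPM, Elane at 32.9 and 46.1 CPM.

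Eosinophil granule genes were higher in ROSA-Cre in both pairs. Of 14 eosinophil, basophil and mast cell genes compared 9 were 2-fold or more higher and 2 lower. Over all genes compared the shares were 4.43% and 3.58%. The median log2 ratio of the 14 was 1.84, and 1.61 in the wild-type pair. Prg2, the eosinophil major basic protein, was at 4.68 CPM in the PF4-Cre and 157 CPM in the ROSA-Cre library labelled knockout, 33.5-fold (29.7 to 38.0) higher, and at 17.9 and 228 CPM in the libraries labelled wild-type. Epx, eosinophil peroxidase, was at 0.926 and 39.5 CPM, and at 4.33 and 50.1 CPM. Ear1, an eosinophil ribonuclease, had 2 counts in PF4-Cre and stood at 10.4 CPM in ROSA-Cre, a ratio of 316 (86.5 to 2625), with reads that the near-identical Ear genes may share. Alox15, a lipoxygenase of eosinophils that is on no list, was at 0.562 and 13.7 CPM. In each of these 4 genes both ROSA-Cre libraries lay above both PF4-Cre libraries. The mast cell genes Cpa3 (39.5 and 7.06 CPM) and Fcer1a (14.4 and 4.51 CPM) were the 2 that were lower, and Mcpt4, Tpsb2 and Tpsab1 had 0 counts in both. Gata2 is a member of this list too. In all, 9 of 18 members tested were higher and 2 lower in the Cre model test, beside 8.47% and 10.1% of all genes tested. With the GC and length offset 8 were higher and 1 lower, beside 2.12% and 1.19%. Prg2 had a log2 difference of 4.33 (edgeR adjusted p = 0.00149).

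Among the regulators of the megakaryocyte lineage 3 of 24 were 2-fold or more higher in ROSA-Cre in the knockout pair and none lower. Over all genes compared the shares were 4.43% and 3.58%, and the median log2 ratio of the 24 was 0.39. Gata2, a zinc finger factor of stem cells, early megakaryocytes and mast cells, was at 303 CPM in the PF4-Cre and 789 CPM in the ROSA-Cre library labelled knockout, 2.61-fold (2.55 to 2.66) higher, and at 153 and 213 CPM in the libraries labelled wild-type. Gfi1 and Cbfa2t3, a corepressor of the TAL1 complex (24.3 and 69.1 CPM, and 24.8 and 52.4 CPM), were the others. Fli1 (749 and 760 CPM), Runx1 (264 and 285 CPM), Tal1 (299 and 313 CPM) and Nfe2 (281 and 318 CPM), which are needed for megakaryocyte maturation, lay close together. After the GC and length trend only Cbfa2t3 of the 24 stayed 2-fold apart, and Gata2 was at a log2 ratio of 0.91 and Gfi1 at 0.94. Among the LSD1-CoREST partners 1 of 12 was higher in ROSA-Cre, beside 4.43% over all genes compared. It was Gse1 (120 and 286 CPM), with a log2 ratio of 0.68 after the trend.

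Of 19 alpha granule genes compared 4 were 2-fold or more lower and 1 higher in ROSA-Cre, beside 3.58% and 4.43% over all genes compared. The median log2 ratio of the 19 was -0.49, against 0.094 in the wild-type pair. Pf4 was at 1428 CPM in the PF4-Cre and 711 CPM in the ROSA-Cre library labelled knockout, 2.01-fold (1.98 to 2.04) lower, and at 1983 and 2016 CPM in the libraries labelled wild-type. Thbs1, thrombospondin, was at 118 and 30.9 CPM, and at 113 and 67.0 CPM. Clu, clusterin, was at 52.3 and 11.03 CPM, and at 32.5 and 44.6 CPM. Ppbp, the platelet basic protein gene beside Pf4, was at 47.8 and 20.9 CPM, and at 48.0 and 25.6 CPM. Cxcl5, another chemokine gene of that cluster on chromosome 5, named after its values were seen, was at 8.75 and 0.849 CPM, and at 6.44 and 1.87 CPM. Nbeal2, a scaffold needed to form alpha granules, was higher, at 134 and 349 CPM, and its wild-type pair, at 79.0 and 205 CPM, gave the same log2 ratio of 1.38. After the trend 2 members were lower and none higher. Of 34 platelet signalling genes 3 were lower and none higher. Among the former was Dok2, an adaptor that dampens kinase signals (53.4 and 12.4 CPM, and 112 and 148 CPM). Of 20 dense granule genes 1 was higher and none lower, and the same 3.58% lower and 4.43% higher stand beside both lists.

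A few ER chaperone genes were lower in ROSA-Cre. Of 25 genes of the unfolded protein response and ER chaperones compared, 3 were 2-fold or more lower and none higher, beside 3.58% and 4.43% over all genes compared, with a median log2 ratio of -0.54, and of -0.067 in the wild-type pair. Hspa5, the chaperone BiP, was at 1279 and 487 CPM, 2.62-fold (2.57 to 2.68) lower, and at 1782 and 1110.5 CPM in the libraries labelled wild-type. Sdf2l1, which works with it, was at 78.6 and 28.7 CPM, and at 132 and 154 CPM. Xbp1, a regulator of this response, was at 132 and 90.5 CPM. After the GC and length trend 2 of the 25 were lower and 1 higher. In the Cre model test by edgeR 4 of 26 were lower and 1 higher, beside 10.1% and 8.47% of all genes tested. With the GC and length offset 1 was lower and none higher, with 10 lower and 3 higher at an unadjusted p under 0.05. DESeq2 without the offset gave 5 lower and 1 higher. Of 18 cytosolic heat shock chaperones 3 were lower, among them Hsp90aa1 (840 and 378 CPM), and none was after the GC and length trend.

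The large housekeeping lists held few differences of that size, beside 4.43% higher and 3.58% lower over all genes compared. None of 56 cytosolic ribosomal protein genes and none of 39 S phase genes was 2-fold apart in the knockout pair, and 1 of 39 G2/M and mitosis genes (Bub1, 107 and 53.1 CPM) and 1 of 43 nuclear oxidative phosphorylation genes (Ndufc2, 81.0 and 39.4 CPM) were lower. Of 24 interferon response genes 1 was higher (Stat2, 18.9 and 39.4 CPM) and 1 lower (Ifi44, 39.5 and 15.1 CPM). The medians of these lists ran from -0.33 to 0.057. The plot of the lists shows the immediate early and late neutrophil lists at the low end, the eosinophil list at the high end and the other medians between -0.65 (monocyte and macrophage) and 0.62 (Wnt pathway).

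**Figure D4:**
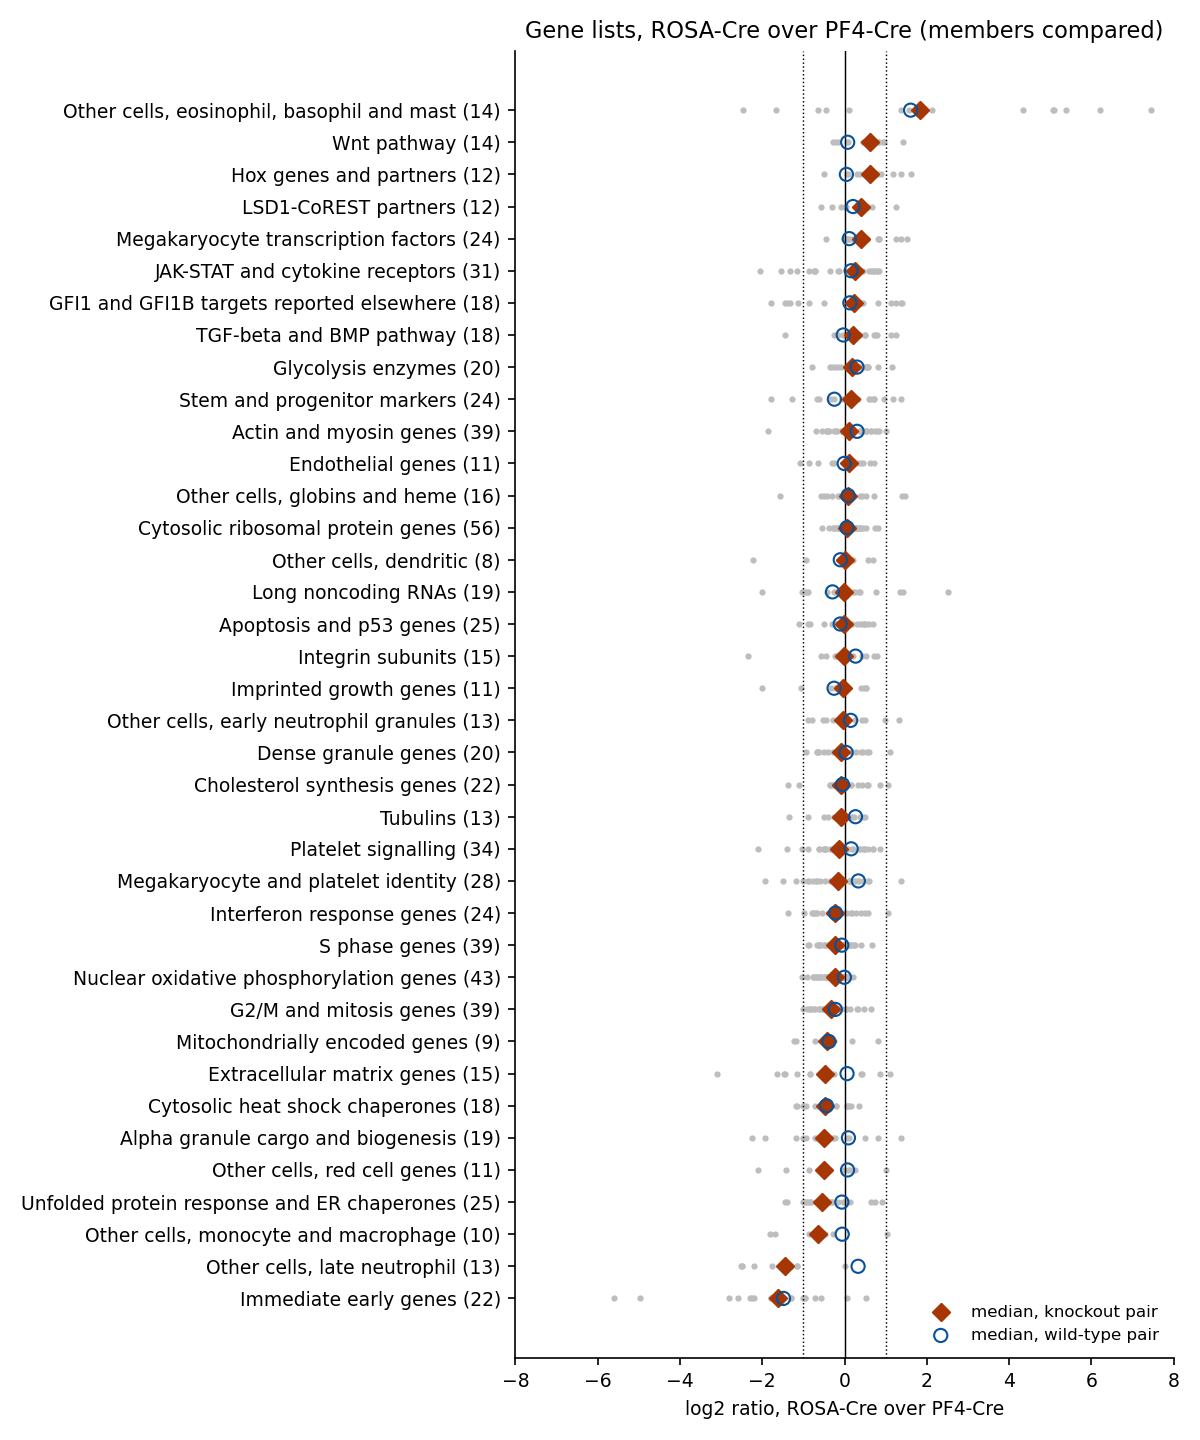
Log2 ratio of ROSA-Cre over PF4-Cre for the members of each gene list with 8 or more compared (number in brackets), as grey points for the knockout pair, with the median of the knockout pair (diamond) and of the wild-type pair (circle) and dotted lines at 2-fold. The circle stands beside the diamond for immediate early (-1.48 and -1.63) and eosinophil genes (1.61 and 1.84) and apart from it for late neutrophil genes (0.33 and -1.45).

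Some genes were far higher in the PF4-Cre library labelled knockout than in the others. Rbm20, a splicing factor known from heart muscle, was at 228 CPM in the PF4-Cre and 7.19 CPM in the ROSA-Cre library labelled knockout, 31.7-fold (27.1 to 37.2) lower, and at 6.68 and 3.45 CPM in the libraries labelled wild-type. Stab1, a scavenger receptor, was at 17.6 CPM in the PF4-Cre library and had 4 counts in the ROSA-Cre library labelled knockout, 98.6-fold (38.4 to 362) lower, and was at 0.301 and 0.325 CPM in the libraries labelled wild-type. Cdh20, a cadherin, was at 9.94 and 0.223 CPM, with 1 and 0 counts in the libraries labelled wild-type. Fgf7, a growth factor, was at 11.99 and 0.67 CPM, and at 0.284 and 0.0813 CPM. Itgb5, an integrin subunit, was at 47.5 and 9.33 CPM, and at 3.75 and 5.24 CPM in the libraries labelled wild-type. Rbm20, Stab1, Fgf7 and Itgb5 passed the genotype test, which averages the Cre models. In ROSA-Cre, Rbm20, Fgf7 and Itgb5 were higher in the library labelled knockout than wild-type, while Stab1, near the floor, was lower. Cdh20 was left out by the filter on low counts, with 601 counts in the PF4-Cre and 5 in the ROSA-Cre library labelled knockout. For Rbm20, Stab1, Cdh20, Fgf7 and Itgb5 the PF4-Cre library labelled knockout was the highest of the 4 by 5-fold or more. Over the 274 compared genes that rose 4-fold or more with genotype 43 were 2-fold or more higher and 42 lower in ROSA-Cre, 31.0% against 8.00% over all genes compared. The genotype test and the knockout pair share libraries, and these shares are descriptions.

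Some of the other large differences stood in genes with near-identical copies, whose reads the counting may split or drop, and those are uncertain. The histone gene Hist1h4m was higher in ROSA-Cre in the knockout pair, at 0.0992 CPM (6 counts) and 40.7 CPM. It was at 26.6 and 41.7 CPM in the libraries labelled wild-type, so the PF4-Cre library labelled knockout was the low one. Hist1h2al, annotated as a processed pseudogene, was higher too, at 0.248 and 33.7 CPM, and at 0.686 and 13.5 CPM in the libraries labelled wild-type. The RNase P related gene Rprl3 (31.6 CPM and 1 count) and the zinc finger gene Zfp990 (31.0 CPM and 0 counts, at least 231-fold by the floor of 3 counts) were lower. Apart from these, the immunoglobulin gene Igha was lower too, at 12.9 CPM and 1 count. It was at 16.0 and 24.4 CPM in the libraries labelled wild-type. Of the abundant genes Plec, the cytolinker plectin (327 and 1031 CPM), and Atp2a3, a calcium pump of platelets (613 and 1449 CPM), were higher, and Serpina3g, a protease inhibitor of early blood cells (726 and 162 CPM), was lower. Gt(ROSA)26Sor, the transcript of the ROSA26 locus, named after its values were seen, was at 14.9 CPM in the PF4-Cre and 3.48 CPM in the ROSA-Cre library labelled knockout, 4.27-fold (3.39 to 5.45) lower, and at 15.3 and 3.21 CPM in the libraries labelled wild-type. Both ROSA-Cre libraries were below both PF4-Cre libraries, with a log2 difference of -2.17 (edgeR adjusted p = 0.00454), and of -1.24 (adjusted p = 0.0434) with the GC and length offset.

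Genes of 4 chromosomes stood apart together in the PF4-Cre library labelled knockout. After the GC and length trend, which was subtracted from each comparison in the same way, the median log2 ratio of the knockout pair was -0.19 over 635 genes of chromosome 1, -0.17 over 519 of chromosome 3, -0.12 over 816 of chromosome 7 and -0.19 over 374 of chromosome 12. The medians of the other 15 autosomes lay between -0.02 and 0.08. For knockout over wild-type in PF4-Cre the medians of chromosomes 1, 3, 7 and 12 lay between 0.06 and 0.10, and those of the others between -0.16 and -0.08, so the sets did not overlap. For knockout over wild-type in ROSA-Cre they lay between -0.08 and 0.03, and between -0.08 and 0.03 for the others, and in the wild-type pair between -0.07 and -0.03, and between -0.10 and -0.03. Taken over all 2344 genes of the 4 chromosomes, the median for PF4-Cre was 0.20 above that of the other autosomes, a level higher by 14.8%, and 0.21 above it without the trend. The same difference was 0.01 in ROSA-Cre. Of these genes 60.1% were above 0 in PF4-Cre, against 36.1% of the 8170 others, while in ROSA-Cre the shares were 49.0% and 47.9%. Cut into blocks of 40 Mb with 71 to 279 genes each, the 4 chromosomes gave 16 blocks. The median was above 0 for PF4-Cre and below 0 for the knockout pair in all 16. For ROSA-Cre it was above 0 in 7 of the 16, and the other autosomes were not cut into blocks. The 4 chromosomes were picked after the medians were seen, so no test is given, the shift is small beside the differences named above, and its cause was not tested.

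**Figure D5:**
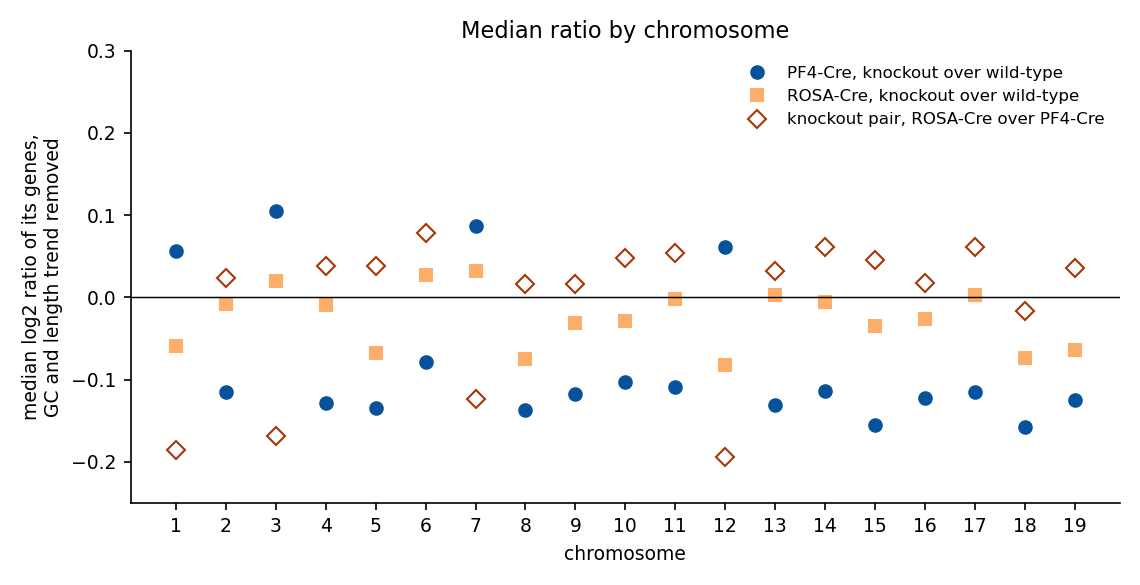
Median log2 ratio of the genes on each autosome after the GC and length trend, for knockout over wild-type in PF4-Cre (circles) and in ROSA-Cre (squares), and for the knockout pair (diamonds). Chromosomes 1, 3, 7 and 12 lie above 0 for PF4-Cre and at -0.12 or lower for the knockout pair, apart from the other 15.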

How the data were processed

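The members, gene lists and tests were chosen with earlier results of these data known. RNA was made into TruSeq Stranded mRNA libraries, per the labels' protocols. The authors deposited 1 table of read counts per gene and library, made with tools among which the submitters' processing notes list HTSeq, DESeq, SAMtools and TopHat2 2.0.10, with mm10 and GRCm38 as builds. Neither annotation release nor strand setting was found in the labels. The 5 summary lines of each table were left out, of which reads in no gene came to 32.1% to 36.2%. Symbols were found for 40254 of 41214 identifiers, and coordinates, exonic length and GC were taken from GENCODE M21, which lacked 874.

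Counts were scaled by TMM and tested with edgeR 4.0.16 (R 4.3.3, quasi-likelihood, newer method, genotype and Cre model as terms, Benjamini-Hochberg adjustment) over 15063 genes that passed filterByExpr (minimum count 10), 14514 of them not on X or Y. With 1 residual degree of freedom and 1 library per group, p-values measure only the spread among these libraries. DESeq2 1.42.0 was an alternative. On simulated counts of 14848 genes the test of either effect recovered 75% of 2-fold and 100% of 4-fold changes. The simulation gave all genes the same dispersion and changed only genes above 5 CPM. It held no GC trend and no disagreement between the Cre models, so these shares are not the power on these data. Log2 ratios of the pairs used a pseudocount of 1 count at the mean size of both libraries, among genes of 5 CPM or more in 1 library, and the GC and length trend used natural splines with 4 degrees of freedom. A level of 0 was bounded by 3 counts. Of 1140 list entries in 41 lists 5 could not be matched. Genes were named by rank: the most abundant, those with the largest rise, fall or ratio, and the largest in each list, and any others were picked as examples after their values were seen. Promoters come from RefSeq GRCm38.p6.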

Additional observations from a re-analysis of the deposited data

Results flagged for a closer look

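Of the 846 genes 2-fold or more apart in the knockout pair, 6 that were higher and 3 that were lower in ROSA-Cre went 2-fold or more the opposite way in the wild-type pair, and the difference was not tested. The predicted gene Gm10020 had log2 ratios of 1.10 in the knockout pair and -2.11 in the wild-type pair, and the other 8 follow. As the log2 ratio of the knockout pair minus that of the wild-type pair the difference was 2.91 for H2-Q1 and 2.94 for H2-T3, histocompatibility genes with close copies, 3.25 for Fam135a, 2.43 for Adgrl4, an endothelial adhesion receptor, and 2.71 for the small RNA gene Gm25791. It was -4.69 for Myo18b, an unconventional myosin, -3.23 for Mical2, an actin oxidising enzyme, and -2.71 for Sema3a, a guidance ligand. Adgrl4 stood at 58.1 CPM in the PF4-Cre and 153 CPM in the ROSA-Cre library labelled knockout, and at 127 and 62.2 CPM in the libraries labelled wild-type. Myo18b stood at 10.6 and 1.92 CPM, and at 0.151 and 0.813 CPM.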

How the results depend on the processing

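Counts of the knockout pair moved with the limits set. Genes higher and lower in ROSA-Cre numbered 1455 and 1339 at 1.5-fold, 39 and 67 at 4-fold, 797 and 689 from 1 CPM, 266 and 224 from 20 CPM, 1069 and 1338 with no CPM limit, and 260 and 257 after the GC and length trend. Scaling without mitochondrial, repeat-like, small RNA, red cell, globin and neutrophil genes gave 428 and 430. The libraries labelled knockout shared 40 of their top 50 and 403 of their top 500 genes. In edgeR the genotype test gave 519 genes lower with no filter on low counts and, without the Cre model term, 151 higher and 4 lower. It gave 400 higher and 91 lower without PF4-Cre wild-type, 714 and 140 without PF4-Cre knockout, 577 and 75 without ROSA-Cre wild-type, and 526 and 52 without ROSA-Cre knockout. The Cre model test gave 724 higher and 912 lower with no filter, 0 and 1 without the genotype term, 0 higher and 0 to 2 lower with 1 library left out, and 306 and 172 with the GC and length offset, an alternative chosen after seeing the data. The cause was not tested. The genotype test already compares the libraries within each Cre model, and the counts without the Cre model term are those without that block. Beyond it, no paired analysis was possible because each group is 1 library and the labels carry no replicate numbers. The depth of the ROSA-Cre libraries limits genes near 0.134 CPM.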
